A study of Mus musculus with 18 samples.

Results

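The *Sult2a* genes, a cluster of cytosolic sulfotransferase genes on mouse chromosome 7, were examined in liver RNA sequencing of WT and *Apoe* KO mice. All entries of the deposited table whose symbol starts with *Sult2a* were taken, which gave 7 genes (*Sult2a1*, *Sult2a2*, *Sult2a3*, *Sult2a5*, *Sult2a6*, *Sult2a7* and *Sult2a8*) out of 15052. The family was picked because neighbouring members differed in opposite directions between EtOH-fed *Apoe* KO and EtOH-fed WT mice. That contrast is therefore only described below and not tested, while the other 3 contrasts were tested. Because the family was chosen with the values of all mice known, their p-values describe this table and are no independent support.

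The 18 mice comprised 9 WT mice, of which 4 were pair-fed and 5 EtOH-fed, and 9 *Apoe* KO mice, of which 5 were pair-fed and 4 (numbers 1, 2, 4 and 5) EtOH-fed. WT mice were C57BL/6J and *Apoe* KO mice carried a constitutive knockout of apolipoprotein E, and both lines came from The Jackson Laboratory. Littermate controls are not stated for them, so loss of *Apoe* and other differences between the lines cannot be told apart. At 10 to 12 weeks of age they had 5 days of acclimation and then 10 days of liquid diet, which held 5% (v/v) ethanol for the EtOH-fed and was isocaloric for the pair-fed mice. On day 11 they received 5 g/kg ethanol or 9 g/kg dextrin maltose by gavage, and whole liver was taken 9 h later. Values are read counts per gene that the authors had brought to almost the same total in each mouse and rounded, called scaled counts here.

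The targeted gene matched the genotype labels, with 611230 to 798431 scaled counts of *Apoe* in the 9 WT mice and 8586 to 108651 in the 9 KO mice. Hepatocyte markers were present in all mice, with 8 of 8 measured and a summed level of 2291282 to 4002106 scaled counts. The labels list every mouse as female, but EtOH-fed *Apoe* KO mouse 1 went against its label. It had 1077 scaled counts of the Y-linked *Ddx3y* and 826 of *Xist*, the transcript of the inactive X chromosome, where the other mice had 2 to 118 and 15227 to 30379. The spacing of low values gave estimates of 5.6 to 52.21 M reads on genes in 16 of 18 mice, with a median of 11.0 M in EtOH-fed *Apoe* KO and 39.5 M in EtOH-fed WT mice, where 3 of 5 could be estimated.

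Sulfotransferases of this family move a sulfonate group from the donor PAPS to a hydroxyl group of steroids such as dehydroepiandrosterone and of bile acids, which makes them more soluble and easier to excrete. The genes are expressed mainly in hepatocytes, are more abundant in female than in male mouse liver, and are known targets of nuclear receptors that sense bile acids and foreign compounds. In bulk liver, fewer cells of a type and less RNA per cell cannot be told apart.

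In the GRCm38 annotation (GENCODE release 21 for mouse), the cluster spans 870.3 kb, chr7:13623967-14494230, and holds 8 protein-coding genes and 4 pseudogenes named *Sult2a*, of which 7 coding genes were in the table. From the *Sult2a5* end they follow as *Sult2a5* (chr7:13623967-13670807, plus strand), *Sult2a2* (chr7:13733505-13779636, plus strand), *Sult2a1* (chr7:13796246-13837409, minus strand), *Sult2a3* (chr7:14067446-14123044, minus strand), *Sult2a6* (chr7:14222403-14254870, minus strand), *Sult2a8* (chr7:14410686-14446769, minus strand) and *Sult2a7* (chr7:14465051-14494230, minus strand). *Apoe* is on the same chromosome at chr7:19696109-19699188, between 5.202 Mb (*Sult2a7*) and 6.025 Mb (*Sult2a5*) from the cluster genes. Whether the lines differ in sequence along this part of the chromosome was not tested, and such a difference cannot be told apart from loss of *Apoe* here.

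The paralogs are close in sequence, which bears on how far their reads can be told apart. The 60 aligned coding bases without gaps that vary most among the members (bases 207 to 266 of the coding sequence, 159 to 218 in *Sult2a7*; *Sult2a8* was left out of this choice) are shown from the GENCODE transcripts, with bases that differ from *Sult2a2* in capitals.
Sult2a2: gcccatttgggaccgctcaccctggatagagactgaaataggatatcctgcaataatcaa
Sult2a5: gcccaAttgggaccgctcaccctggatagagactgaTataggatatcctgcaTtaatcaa
Sult2a1: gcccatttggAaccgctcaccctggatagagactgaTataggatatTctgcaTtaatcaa
Sult2a3: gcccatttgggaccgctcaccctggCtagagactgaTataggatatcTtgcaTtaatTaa
Sult2a7: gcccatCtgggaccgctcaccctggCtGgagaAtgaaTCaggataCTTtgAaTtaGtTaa
Sult2a6: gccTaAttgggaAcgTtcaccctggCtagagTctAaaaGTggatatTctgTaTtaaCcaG
Sult2a8: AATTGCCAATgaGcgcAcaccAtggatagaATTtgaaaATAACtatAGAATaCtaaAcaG
In this window *Sult2a5*, *Sult2a1* and *Sult2a3* differed from *Sult2a2* at 3, 4 and 5 bases, *Sult2a7* and *Sult2a6* at 13 and 14, and *Sult2a8* at 29. Over the aligned coding sequence, *Sult2a2* was 97.9% identical to *Sult2a1*, 95.7% to *Sult2a5*, 93.8% to *Sult2a3*, 87.6% to *Sult2a6*, 82.0% to *Sult2a7* and 69.4% to *Sult2a8*. Of all stretches of 50 bases in a transcript, 37.9% occurred in no other annotated transcript of another gene for *Sult2a2*, 65.5% for *Sult2a5*, 66.8% for *Sult2a1*, 91.6% for *Sult2a3* and 92.7% for *Sult2a6*. For *Sult2a7* and *Sult2a8* all stretches were unique. How the counting treated reads that fit several genes is not given in the sources used here, so the values of *Sult2a1*, *Sult2a2* and *Sult2a5* are uncertain to the extent that reads were shared among them.

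RefSeq promoters on GRCm38.p6 were matched for 4 of the 7 members (*Sult2a3*, *Sult2a5*, *Sult2a6* and *Sult2a8*) and for *Sult2a4*, which is not a member here. The 250 bases before the start of *Sult2a5* and *Sult2a6*, the members with higher values in pair-fed *Apoe* KO mice, are shown with those of *Sult2a3*, a close paralog with lower mean values there. Capitals mark the 5 stretches of at least 10 bases that *Sult2a5* and *Sult2a6* share letter for letter, wherever a promoter holds them whole.
Sult2a5, chr7:13623717-13623966, plus strand: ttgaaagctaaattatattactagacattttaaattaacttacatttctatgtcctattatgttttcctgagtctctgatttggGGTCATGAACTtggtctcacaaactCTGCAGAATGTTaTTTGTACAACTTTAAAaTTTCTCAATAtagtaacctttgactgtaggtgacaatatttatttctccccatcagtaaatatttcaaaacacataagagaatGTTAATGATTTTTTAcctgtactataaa
Sult2a6, chr7:14254871-14255120, minus strand: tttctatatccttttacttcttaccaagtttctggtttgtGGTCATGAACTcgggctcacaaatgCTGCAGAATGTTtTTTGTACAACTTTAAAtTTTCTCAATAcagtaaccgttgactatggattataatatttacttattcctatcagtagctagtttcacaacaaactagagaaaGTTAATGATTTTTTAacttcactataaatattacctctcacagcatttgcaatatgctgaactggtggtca
Sult2a3, chr7:14123049-14123298, minus strand: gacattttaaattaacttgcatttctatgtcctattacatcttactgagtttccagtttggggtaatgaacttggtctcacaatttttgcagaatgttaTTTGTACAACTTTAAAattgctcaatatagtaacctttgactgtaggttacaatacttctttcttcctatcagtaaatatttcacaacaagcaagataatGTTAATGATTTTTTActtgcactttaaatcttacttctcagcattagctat
The first stretch, GGTCATGAACT, starts 166 bases before the start of *Sult2a5* and 210 bases before that of *Sult2a6*. It is an inverted repeat of the kind that bile acid-sensing nuclear receptors are known to recognise. Counted as a whole match on both strands, it was found in 6 of 32851 promoter windows of this length (0.0183%). The *Sult2a8* windows do not hold it, whereas those of *Sult2a3* (ggtaatgaact) and *Sult2a4* (agtcatgaact) hold it with 1 base changed. No promoter was matched for *Sult2a2*, the member that was lower, so its window could not be compared. The last stretch, GTTAATGATTTTTTA, starts 28 bases before *Sult2a5* and 71 bases before *Sult2a6*, and its first letters resemble the recognition sequence of the liver factor HNF1. It was found in 4 windows (0.0122%), among them that of *Sult2a3*, 51 bases before the start. The *Sult2a4* window also holds it, 107 bases before the start. CTGCAGAATGTT was found in 6 windows (0.0183%), among them that of *Sult2a4*, 220 bases before the start, TTTGTACAACTTTAAA in 3 (0.00913%), again with *Sult2a3*, and TTTCTCAATA in 21 (0.0639%). None of the 5 overlaps another, the *Sult2a8* windows hold none, and binding was not measured. All these counts include the windows of *Sult2a5* and *Sult2a6*, from which the stretches were taken, so nothing is read from their rarity.

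**Figure D1:**
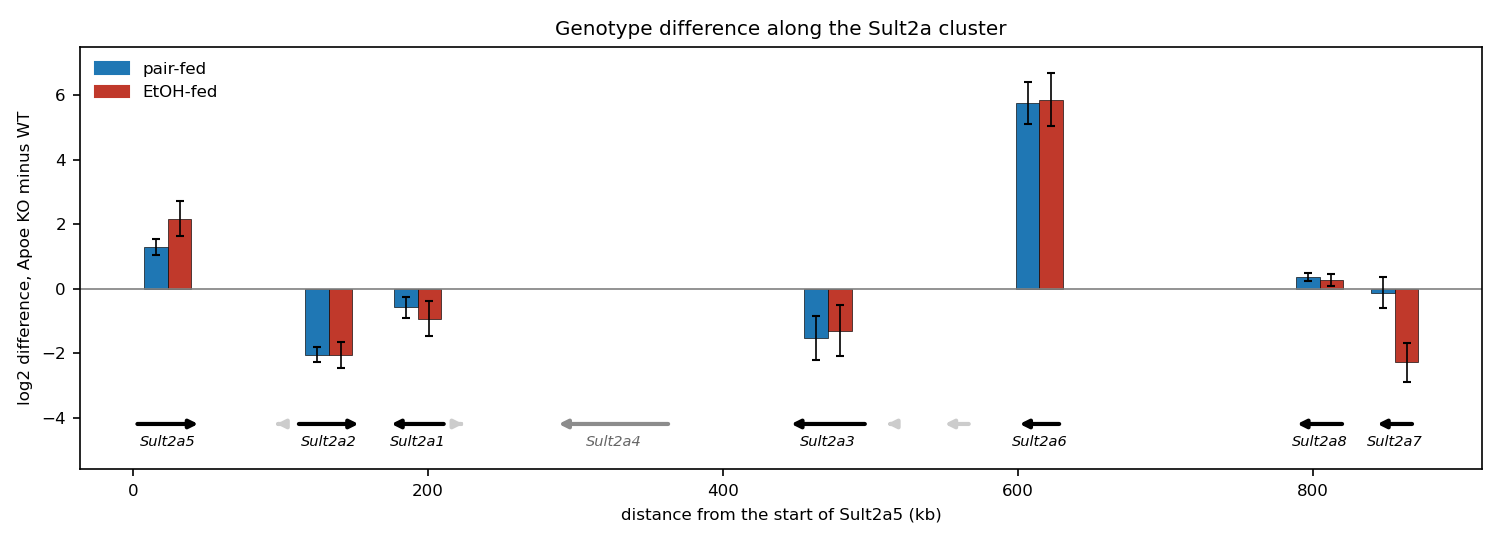
Bars give the log2 difference between *Apoe* KO and WT mice (y axis) for each *Sult2a* gene at its place in the cluster (x axis, distance from the start of *Sult2a5* in kb), in pair-fed (blue) and EtOH-fed (red) mice, with error bars of 1 SE. Arrows show the direction of transcription, black for genes in the table, dark grey for *Sult2a4* and light grey for pseudogenes. *Sult2a6* (5.76 pair-fed and 5.87 EtOH-fed) and *Sult2a5* (1.29 and 2.17) lie above 0, and *Sult2a2* (−2.05 in both) lies below it.

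Levels differed widely among the members. Per kb of exon, the mean level in pair-fed WT mice was 12978 scaled counts for *Sult2a2*, 8912 for *Sult2a1* and 3384 for *Sult2a8*, then 393 for *Sult2a3*, 376 for *Sult2a5*, 183 for *Sult2a7* and 8.77 for *Sult2a6*. The ranges of *Sult2a2* (10493 to 15865 per kb) and *Sult2a1* (5884 to 10756 per kb) overlapped, as did those of *Sult2a3*, *Sult2a5* and *Sult2a7*, whereas *Sult2a8* (3068 to 3920 per kb) and *Sult2a6* (0 to 18.6 per kb) stood apart from their neighbours in this order. In pair-fed *Apoe* KO mice the order was *Sult2a1* (mean 6517 per kb), *Sult2a8* (4393), *Sult2a2* (3282), *Sult2a5* (923), *Sult2a6* (366), *Sult2a3* (185) and *Sult2a7* (165). The level of *Sult2a2* per kb rests on a short annotated transcript of 741 bases. That of *Sult2a8* rests on all its annotated exons, 3284 bases, where the transcript compared above has 2097. With the shorter length its level would be higher. Its mean would still be below that of *Sult2a1* in pair-fed WT mice, with overlapping ranges, but above it in pair-fed *Apoe* KO mice.

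**Figure D2:**
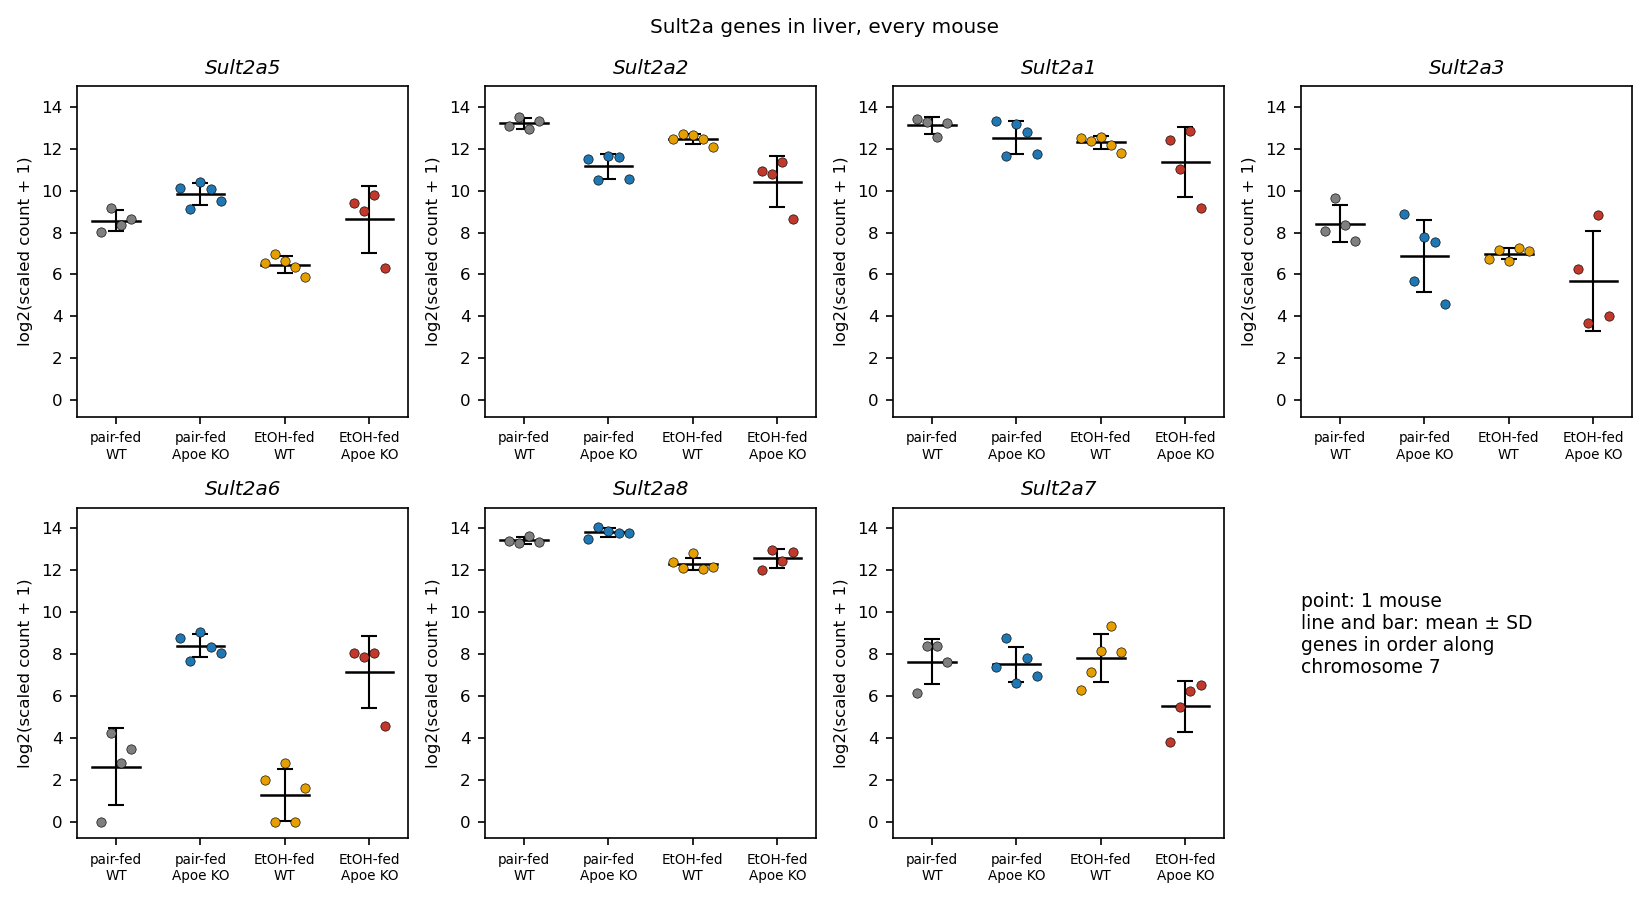
Each panel gives log2(scaled count + 1) of a *Sult2a* gene (y axis) in every mouse of the 4 groups (x axis). Points are mice, and the horizontal line and bar are the mean and SD. The *Sult2a6* values of all 9 *Apoe* KO mice (23 to 538 scaled counts) lie above those of the 9 WT mice (0 to 18), while *Sult2a8* separates by diet.

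The comparison of pair-fed *Apoe* KO with pair-fed WT mice shows what differed between the genotypes without ethanol. *Sult2a6* and *Sult2a5* were higher and *Sult2a2* was lower in *Apoe* KO mice, so that 2 members rose and 1 fell, and 4 of 7 did not pass the test. *Sult2a6* was in the table only through its *Apoe* KO values, as described below, so its call is no support and nothing is read from this count. Over all 15052 genes, 1.73% passed at an adjusted p-value under 0.05, with 0.87% higher and 0.864% lower. The median log2 difference was −0.12 over the 7 members and −0.005 over all genes.

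*Sult2a6* was near the detection limit in WT liver. Pair-fed WT mice had 0, 18, 6 and 10 scaled counts, which corresponds to about 0, 6, 5 and 6 reads. Pair-fed *Apoe* KO mice had 436, 204, 538, 325 and 268 scaled counts, or about 115 to 399 reads. No *Apoe* KO value overlapped a WT value, and the group means differed 41.7-fold. On the log2(value + 1) scale, where differences of low genes depend on the value added, the difference was 5.76 ± 0.65 (SE). The adjusted p-value was 0.000526 by limma, with Benjamini-Hochberg adjustment over all genes. With a pseudocount of 10 the difference was 4.32 (limma, adjusted p-value 6.56e-06). No gene in the deposited table had a mean below 11.76. The *Sult2a6* means of WT mice were lower, at 8.5 scaled counts pair-fed and 2.2 EtOH-fed. The gene was therefore in the table only through its *Apoe* KO values. Its p-values and the lack of overlap thus cannot stand as support for its higher level.

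*Sult2a5*, which is 95.7% identical to *Sult2a2* in its coding sequence, was also higher. It had 259, 584, 327 and 403 scaled counts in pair-fed WT mice and 1100, 561, 1374, 1067 and 724 in pair-fed *Apoe* KO mice. Only *Apoe* KO mouse 2 fell within the WT range. The log2 difference was 1.29 ± 0.26 (limma, adjusted p-value 0.0239). This call was lost on leaving out pair-fed WT mouse 1 (adjusted p-value 0.065) or 4 (0.0735) or pair-fed *Apoe* KO mouse 1 (0.0645) or 4 (0.0594), and with all 4 groups sharing the estimate of the spread (0.152), while the difference stayed between 1.11 and 1.5.

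*Sult2a2*, an abundant steroid and bile acid sulfotransferase of female liver, moved the other way. It had 8690, 11756, 7775 and 10246 scaled counts in pair-fed WT mice and 2904, 1445, 3243, 3077 and 1490 in pair-fed *Apoe* KO mice. The groups did not overlap, as in 2 of 7 members (*Sult2a2* and *Sult2a6*) and in 7.03% of all genes. Nothing is read from this count, since *Sult2a6* was in the table only through its *Apoe* KO values. The log2 difference of *Sult2a2* was −2.05 ± 0.24 (limma, adjusted p-value 0.000576), and it stayed between −2.18 and −1.89 when any mouse was left out.

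The other 4 members did not pass in this comparison. *Sult2a1*, the closest paralog of *Sult2a2*, had 10971, 9799, 6002 and 9587 scaled counts in pair-fed WT and 10233, 3237, 9225, 7130 and 3410 in pair-fed *Apoe* KO mice, a log2 difference of −0.58 (95% interval −1.25 to 0.10, limma adjusted p-value 0.33). *Apoe* KO mice 2 and 5 were low in it, as they were in *Sult2a2*. *Sult2a3* had 265, 813, 328 and 193 against 466, 51, 218, 186 and 23 scaled counts, a log2 difference of −1.53 (interval −3.00 to −0.05, limma adjusted p-value 0.235). *Sult2a8*, known as a major bile acid sulfotransferase of mouse liver and the most divergent member by sequence, had 10971, 10076, 12873 and 10538 against 11716, 17074, 14843, 14249 and 14259 scaled counts, a log2 difference of 0.37 (interval 0.13 to 0.62, limma adjusted p-value 0.107). *Sult2a7* had 69, 332, 339 and 195 against 167, 440, 98, 225 and 122 scaled counts, with wide spread in both groups and a log2 difference of −0.12 (interval −1.12 to 0.88, limma adjusted p-value 0.908).

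Some other sex-biased genes passed between the pair-fed genotypes. Of 27 measured female-biased liver genes, 0 rose, 5 fell and 22 did not pass (limma, adjusted p-value under 0.05), with a median log2 difference of −0.52, and at an unadjusted p-value under 0.05 it was 1 higher and 12 lower. *Cyp2b13* (log2 difference −5.63), *Cyp2b9* (−5.17), *Cyp17a1* (−0.99), *Hao2* (−1.58) and *Cyp3a44* (−1.81) were the 5. Of 22 male-biased liver genes, 6 rose and 0 fell, among them *C8b* (1.11), *Serpina1e* (2.02) and the organic anion transporter *Slco1a1* (1.96), with a median of 0.60, and at an unadjusted p-value under 0.05 it was 11 higher and 0 lower. Over all genes the median was −0.005, with 0.864% lower and 0.87% higher. The part of these sex-biased genes in the *Sult2a* differences was not tested.

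Some markers of the liver's cell types passed between the pair-fed genotypes, where 1.73% of all genes passed. By limma 1 of 8 hepatocyte markers (*Fabp1*, log2 difference −0.93, adjusted p-value 0.0191), 1 of 6 sinusoidal endothelial markers (*Clec4g*, −0.66, 0.00998) and 1 of 7 stellate cell or fibroblast markers (*Ecm1*, −0.42, 0.0494) fell. At an unadjusted p-value under 0.05 it was 4 lower and 1 higher of the 6 endothelial markers (median −0.42), and 1 lower and 2 higher of the 8 hepatocyte markers. None of 6 Kupffer cell, 5 cholangiocyte, 3 neutrophil and 5 lymphocyte markers passed by limma, where at an unadjusted p-value under 0.05 it was 1 higher and 1 lower, 1 lower, 0 and 4 lower. Their part in the *Sult2a* differences was not tested.

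**Figure D3:**
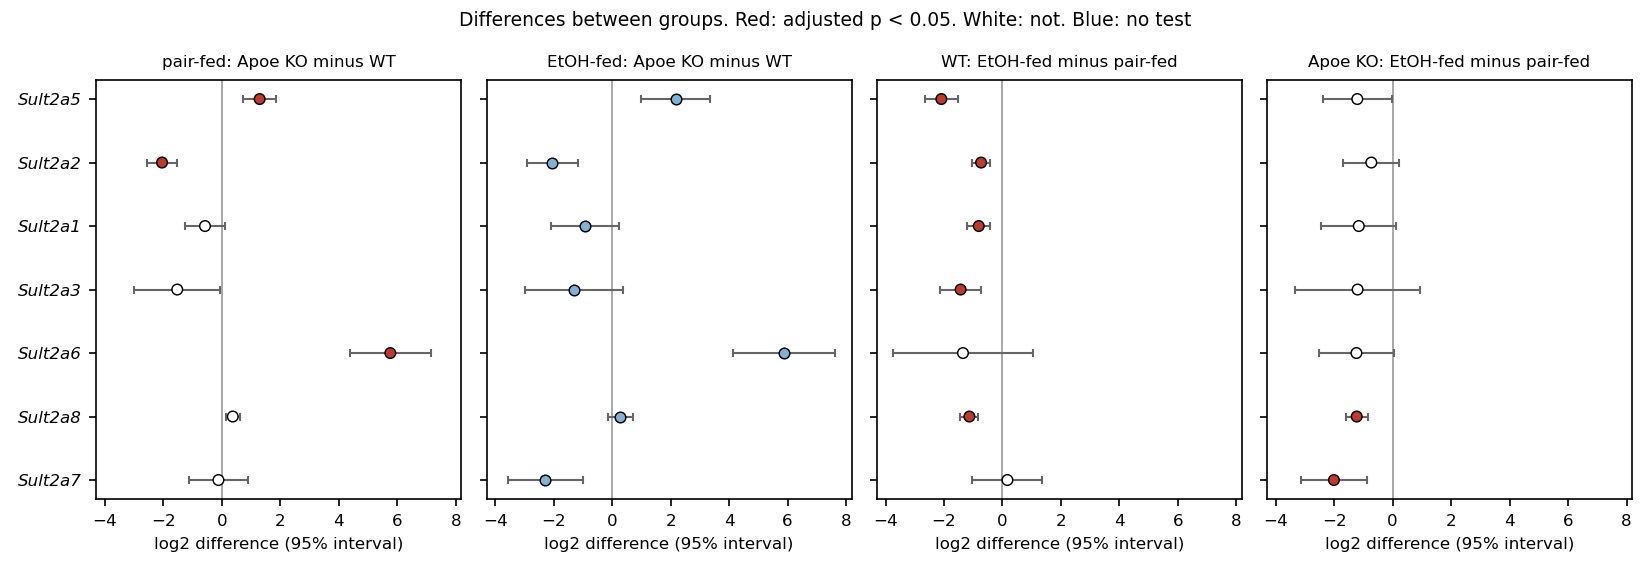
Log2 differences (x axis) of the 7 *Sult2a* genes (y axis) in the 4 comparisons, with 95% intervals. Red points had an adjusted p-value under 0.05, white points did not, and blue points were not tested because the family was chosen on that contrast. Diet differences in WT mice lie below 0 except for *Sult2a7* (0.17), and genotype differences lie on both sides of 0.

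In EtOH-fed mice, the contrast that led to the choice of the family, *Sult2a6* had 268, 234, 266 and 23 scaled counts in the *Apoe* KO and 3, 0, 6, 0 and 2 in the WT mice. All 4 *Apoe* KO mice were above all 5 WT mice, with a ratio of the means of 89.9. The log2 difference was 5.87 ± 0.81 (SE), and 3.71 with a pseudocount of 10. *Sult2a5* had 673, 523, 897 and 77 scaled counts in *Apoe* KO and 91, 125, 98, 80 and 57 in WT mice (2.17 ± 0.55), and the groups overlapped through *Apoe* KO mouse 5 alone.

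*Sult2a2* was again in the opposite direction in EtOH-fed mice, with 1952, 1778, 2645 and 396 scaled counts in *Apoe* KO and 5671, 6734, 6365, 5729 and 4407 in WT mice (−2.05 ± 0.40), and no overlap. *Sult2a7* had 13, 43, 74 and 92 in *Apoe* KO and 76, 142, 285, 646 and 269 in WT mice (−2.29 ± 0.60), with overlap between *Apoe* KO mouse 5 and WT mouse 1. Its difference between the genotypes was −0.12 in pair-fed mice. The remaining members overlapped between the groups, with log2 differences of −0.93 ± 0.54 for *Sult2a1*, −1.30 ± 0.78 for *Sult2a3* and 0.27 ± 0.20 for *Sult2a8*.

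Groups without overlap were seen for 2 of 7 members in EtOH-fed mice and for 8.13% of all genes, a count from which nothing is read because the contrast chose the family. A log2 difference beyond 1 was seen for 5 of 7 members and for 6.16% of all genes, from which again nothing is read. The difference between the EtOH-fed and the pair-fed genotype contrast was 0.88 ± 0.68 (SE) for *Sult2a5*, 0.11 ± 1.13 for *Sult2a6* and 0.00 ± 0.53 for *Sult2a2*. For *Sult2a7* it was −2.17 ± 0.85. These values are given without a test, since they contain the contrast that chose the family.

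Leaving out EtOH-fed *Apoe* KO mouse 1, the mouse that went against its label, gave log2 differences between the EtOH-fed genotypes of 5.56 for *Sult2a6*, 1.91 for *Sult2a5*, −2.22 for *Sult2a2* and −1.72 for *Sult2a7*. EtOH-fed *Apoe* KO mouse 5 was the lowest of its group in *Sult2a6*, *Sult2a5*, *Sult2a2* and *Sult2a1*. Without it the values were 6.72 for *Sult2a6*, 2.95 for *Sult2a5*, −1.45 for *Sult2a2* and −2.63 for *Sult2a7*, and that of *Sult2a1* was −0.19. The hepatocyte marker sum of mouse 5 was 2764920 scaled counts, within the 2351364 to 3288837 of its group.

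Markers of other liver cells moved with genotype in EtOH-fed mice, where 4.69% of all genes passed. All 6 Kupffer cell markers were higher in *Apoe* KO mice (limma, adjusted p-value under 0.05), with a summed level of 10758 to 20810 scaled counts against 4329 to 8268 in WT mice and none of them at 0. Stellate cell or fibroblast markers rose for 2 of 7 (*Col1a1*, log2 difference 2.0, and *Col3a1*, 1.75), with sums of 21488 to 38105 against 15287 to 25307. Cholangiocyte markers rose for 1 of 5 (*Krt19*, 2.05), with sums of 2705 to 8719 against 1669 to 3818. With median-of-ratios size factors 4 of 6 Kupffer cell and 0 of 5 cholangiocyte markers passed. Of the 8 hepatocyte markers none passed by limma (1 higher and 1 lower at an unadjusted p-value under 0.05), with sums of 2351364 to 3288837 against 2291282 to 3783268. None of 6 endothelial, 3 neutrophil and 5 lymphocyte markers passed by limma, and 0 did at an unadjusted p-value under 0.05. Of the sex-biased genes, 6 of 27 female-biased ones fell and 0 rose (7 lower and 2 higher unadjusted), and 2 of 22 male-biased ones rose and 0 fell (7 higher and 1 lower unadjusted). Their part in the differences of the *Sult2a* genes was not tested.

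Ratios between paralogs within a mouse do not depend on how that mouse was scaled. *Sult2a6* amounted to 0, 0.153, 0.0772 and 0.0976 scaled counts per 100 of *Sult2a2* in pair-fed WT and to 15, 14.1, 16.6, 10.6 and 18 in pair-fed *Apoe* KO mice. In EtOH-fed mice it was 0 to 0.0943 per 100 in WT and 13.7, 13.2, 10.1 and 5.81 in *Apoe* KO mice. The ratio separated the genotypes on both diets, which follows from *Sult2a6* being higher and *Sult2a2* lower in *Apoe* KO mice without overlap. EtOH-fed *Apoe* KO mouse 5, low in its absolute level, was the lowest of the *Apoe* KO mice but still apart from WT.

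For *Sult2a5* the ratio to 100 of *Sult2a2* was 2.98, 4.97, 4.21 and 3.93 in pair-fed WT and 37.9, 38.8, 42.4, 34.7 and 48.6 in pair-fed *Apoe* KO mice. With EtOH it was 1.60, 1.86, 1.54, 1.40 and 1.29 in WT mice, below every pair-fed WT mouse, and 34.5, 29.4, 33.9 and 19.4 in *Apoe* KO mice. *Sult2a1* amounted to 77.2 to 126 per 100 of *Sult2a2* in pair-fed and 78.6 to 104 in EtOH-fed WT mice, and to 224 to 352 in pair-fed and 118 to 285 in EtOH-fed *Apoe* KO mice. These ratios share the numerator or denominator with the members described above and were not tested.

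**Figure D4:**
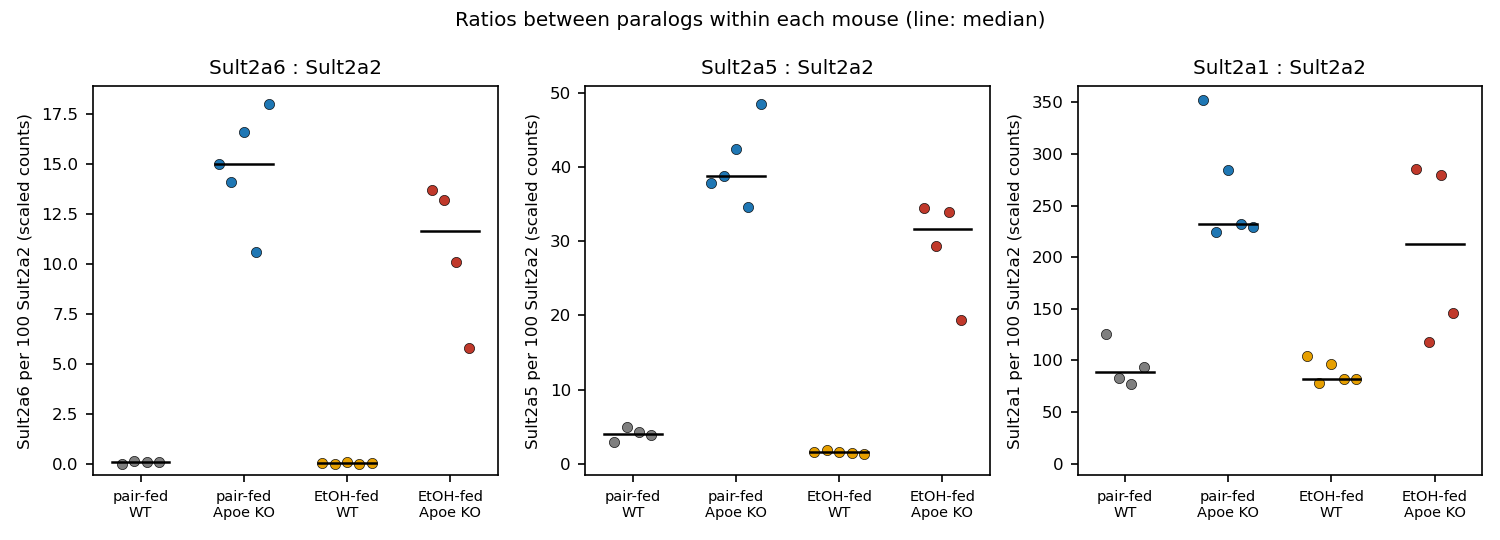
Scaled counts of *Sult2a6*, *Sult2a5* and *Sult2a1* per 100 scaled counts of *Sult2a2* in the same mouse (y axes), by group (x axis). Points are mice and lines are medians. The median ratio of *Sult2a5* is 4.07 in pair-fed WT and 1.54 in EtOH-fed WT mice, and 38.8 and 31.6 in the pair-fed and EtOH-fed *Apoe* KO mice.

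The summed level of the 7 genes was 27650 to 33378 scaled counts in pair-fed and 13107 to 20157 in EtOH-fed WT mice. In *Apoe* KO mice it was 20296 to 29539 when pair-fed and 8743 to 17216 when EtOH-fed. *Sult2a8* made up 30.2% to 46.6% of the sum in pair-fed WT and 43.4% to 74.2% in pair-fed *Apoe* KO mice. The share of *Sult2a2* was 27.8% to 35.2% in pair-fed WT and 6.28% to 11.7% in pair-fed *Apoe* KO mice. *Sult2a6* reached at most 0.0539% in WT mice and 0.263% to 2.11% in *Apoe* KO mice, so its large fold difference concerned a small part of the family's transcripts.

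The comparison of EtOH-fed with pair-fed WT mice shows the effect of the ethanol diet and gavage in WT liver. It uses the same pair-fed WT mice as the genotype comparison above. *Sult2a5*, *Sult2a8*, *Sult2a2*, *Sult2a1* and *Sult2a3* were lower in EtOH-fed WT mice, so that 5 of 7 members fell, 0 rose (0 also at an unadjusted p-value under 0.05 by limma) and 2 did not pass. Over all genes 12.7% passed, with 6.19% higher and 6.52% lower. The median log2 difference was −1.13 over the members and −0.011 over all genes.

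*Sult2a5* fell most among these 5, from 259 to 584 scaled counts in pair-fed WT to 57 to 125 in EtOH-fed WT mice, without overlap (log2 difference −2.09 ± 0.26, limma, adjusted p-value 0.000304). *Sult2a8*, for which every 50-base stretch is unique, had 5317, 4416, 7155, 4212 and 4612 scaled counts in EtOH-fed WT against 10076 to 12873 in pair-fed WT mice (−1.13 ± 0.15, limma, adjusted p-value 0.000415). *Sult2a2* fell by less (−0.73 ± 0.14, adjusted p-value 0.00591 by limma), from 7775 to 11756 to a range of 4407 to 6734. In these 3 genes the groups did not overlap.

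*Sult2a1* had 5923, 5292, 6148, 4706 and 3622 scaled counts in EtOH-fed WT mice (−0.81 ± 0.18, limma, adjusted p-value 0.0124), where mouse 3 exceeded pair-fed WT mouse 3. *Sult2a3* had 106, 143, 100, 152 and 138 scaled counts, all below the pair-fed range of 193 to 813 (−1.43 ± 0.33, limma, adjusted p-value 0.0128). Groups did not overlap for 4 of 7 members, all lower, against 6.96% of all genes that were lower without overlap. The calls of *Sult2a2*, *Sult2a1* and *Sult2a3* were lost when all 4 groups shared the estimate of the spread (adjusted p-values 0.204, 0.304 and 0.273).

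*Sult2a6* and *Sult2a7* did not pass in WT mice. *Sult2a6* was at 0 to 6 scaled counts in EtOH-fed WT mice and 0 to 18 in pair-fed WT mice, too low for a diet difference to be detected at this depth (interval −3.73 to 1.03). *Sult2a7* had 76, 142, 285, 646 and 269 scaled counts in EtOH-fed WT mice, a log2 difference of 0.17 (interval −1.03 to 1.37, limma adjusted p-value 0.881).

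Cell type markers also moved with EtOH in WT mice, where 12.7% of all genes passed. By limma 5 of 6 endothelial markers rose, with sums of 6306 to 8636 scaled counts against 4783 to 5253, 2 of 6 Kupffer cell and 2 of 5 cholangiocyte markers fell, and 2 of 8 hepatocyte markers rose and 1 fell. None of 7 stellate cell, 3 neutrophil and 5 lymphocyte markers passed, where at an unadjusted p-value under 0.05 it was 1, 1 and 3 lower. Of the sex-biased genes, 3 of 27 female-biased ones rose and 9 fell, and 2 of 22 male-biased ones rose and 6 fell. Their part in the *Sult2a* differences was not tested.

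In *Apoe* KO mice, the same diet comparison showed lower *Sult2a8* and *Sult2a7*, with 2 of 7 members lower, 0 higher (0 also at an unadjusted p-value under 0.05 by limma) and 5 not passing. Over all genes 23.2% passed, with 16.3% higher and 6.92% lower. The median log2 difference was −1.21 over the members and 0.126 over all genes. With median-of-ratios size factors the median over all genes was 0.002, and 1656 genes were higher and 1607 lower in place of 2446 and 1042.

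*Sult2a8* had 4145, 8066, 5482 and 7563 scaled counts in EtOH-fed against 11716 to 17074 in pair-fed *Apoe* KO mice, without overlap (−1.23 ± 0.17, limma, adjusted p-value 0.000315). Its log2 difference was −1.13 in WT and −1.23 in *Apoe* KO mice, and these differed by −0.10 ± 0.25. *Sult2a7* had 13, 43, 74 and 92 scaled counts, or about 18, 18, 18 and 24 reads, against 98 to 440 in pair-fed *Apoe* KO mice, again without overlap (−2.01 ± 0.53, limma, adjusted p-value 0.0146). Over all genes, 6.01% were lower without overlap. Both calls held without EtOH-fed *Apoe* KO mouse 1 (adjusted p-values 0.000507 and 0.0317).

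The 5 others did not pass. Among EtOH-fed *Apoe* KO mice, mouse 5 was the lowest in 4 of them (*Sult2a5*, *Sult2a6*, *Sult2a2* and *Sult2a1*), and mouse 2 in *Sult2a3*. The log2 differences were −1.21 ± 0.54 for *Sult2a5*, −1.24 ± 0.59 for *Sult2a6*, −0.73 ± 0.45 for *Sult2a2*, −1.16 ± 0.60 for *Sult2a1* and −1.20 ± 1.0 for *Sult2a3*. By limma their adjusted p-values were 0.126, 0.148, 0.264, 0.183 and 0.415. Without mouse 5 the differences were −0.43 for *Sult2a5*, −0.39 for *Sult2a6*, −0.13 for *Sult2a2*, −0.43 for *Sult2a1* and −0.64 for *Sult2a3*. *Sult2a1* values were 5555, 2103, 7402 and 577 scaled counts, and *Sult2a3* values 75, 12, 450 and 15, in EtOH-fed *Apoe* KO mice 1, 2, 4 and 5.

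Between the diets in *Apoe* KO mice 23.2% of all genes passed. Of the cell type markers, 5 of 6 endothelial ones rose with EtOH by limma, with sums of 6037 to 10136 scaled counts against 3494 to 4880. Rises were also called for 5 of 7 stellate cell, 2 of 6 Kupffer cell and 1 of 5 cholangiocyte markers. Of 8 hepatocyte markers 1 rose and 2 fell. None of 3 neutrophil and 5 lymphocyte markers passed by limma, with 0 and 1 higher at an unadjusted p-value under 0.05. Of the sex-biased genes, 3 female-biased ones rose and 5 fell, and 1 male-biased one rose and 9 fell (12 with median-of-ratios size factors). Their part in the *Sult2a* differences was not tested.

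Within groups, *Sult2a5*, *Sult2a2* and *Sult2a1*, which are neighbours in the cluster, varied together, and *Sult2a3* varied with them less closely. Over the 18 mice, deviations from the group means on the log2 scale correlated between *Sult2a5* and *Sult2a2* with a Pearson's r of 0.97 and a Spearman's rho of 0.94. For *Sult2a2* and *Sult2a1* these values were 0.93 and 0.80, and for *Sult2a5* and *Sult2a1* 0.88 and 0.72. Leaving out the 2 mice farthest from the median, EtOH-fed *Apoe* KO mice 4 and 5, gave r of 0.90, 0.82 and 0.69. These 3 genes share many 50-base stretches, *Sult2a2* 286 of its 692 with *Sult2a1*, and the part of shared reads in this likeness was not tested. *Sult2a3*, with 91.6% of its stretches unique, also followed *Sult2a1* (r of 0.76, rho of 0.70), *Sult2a2* (0.67 and 0.69) and *Sult2a5* (0.61 and 0.67). Without the same 2 mice r was 0.68, 0.56 and 0.44.

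*Sult2a6* and *Sult2a2* show how group and mouse can differ in sign. Over all 18 mice their log2 values correlated with an r of −0.57, whereas their deviations from the group means correlated with an r of 0.62 and a rho of 0.58. Without the 2 farthest mice the latter r was 0.38, and without EtOH-fed *Apoe* KO mouse 5 alone it was 0.31. Deviations of *Sult2a8* correlated with those of *Sult2a2* at −0.40 and with those of *Sult2a3* at −0.55. In all, 21 pairs were compared. Permutations within groups gave p-values that are not used here, so the correlations are given as a description.

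**Figure D5:**
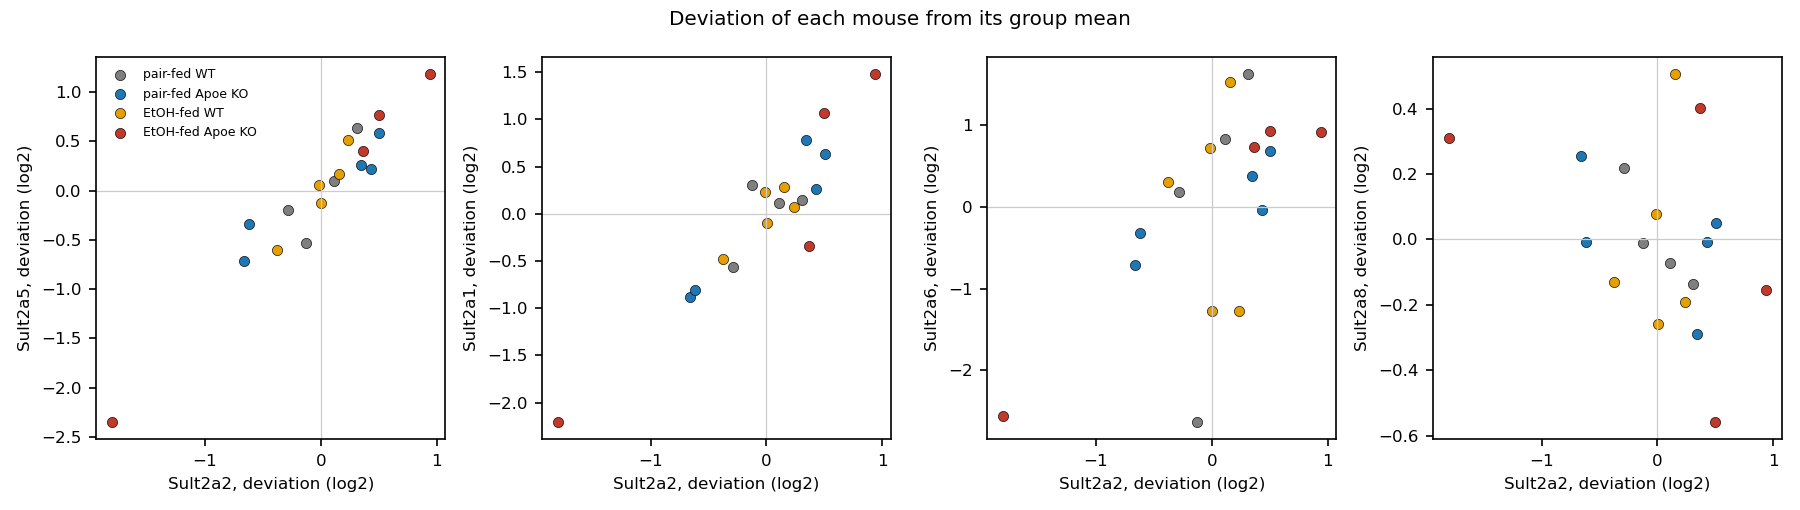
Deviation of each mouse from its group mean on the log2 scale for *Sult2a2* (x axis) and for *Sult2a5*, *Sult2a1*, *Sult2a6* and *Sult2a8* (y axes). Points are the 18 mice, coloured by group. *Sult2a5* follows *Sult2a2* closely (r of 0.97, and 0.90 without the 2 farthest mice), and EtOH-fed *Apoe* KO mouse 5 is the point at the lower left in the first 3 panels.

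Among all other genes, those with the highest Pearson's r over the 18 mice on the log2 scale were named for each member. For *Sult2a6* all 3 lie on chromosome 7, namely *Sae1* (r of 0.90, chr7:16320234-16387806), *Dedd2* (0.90, chr7:25199915-25220615) and *Igsf23* (0.87, chr7:19937305-19950756). Their deviations from the group means correlated with those of *Sult2a6* at 0.22, 0.39 and 0.63. For *Sult2a2* they were *Sbsn* (0.86), the peroxisomal hydroxyacid oxidase gene *Hao2* (0.85) and the transporter gene *Slc22a27* (0.83), of which *Hao2* and *Slc22a27* are on the list of female-biased genes.

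*Sult2a5* was most like *Mcoln1* (0.87), *Rab20* (0.86) and *Gda* (0.84), and *Sult2a8* most like the sterol transporter gene *Abcg5* (0.92), *Car1* (0.92) and *AC102159.1* (0.91). *Sult2a1* was followed by *Cfap54* (0.91), *E330011M16Rik* (0.85) and *Zfp712* (0.83), with deviations from the group means correlating at 0.91, 0.81 and 0.79. *Sult2a3* was followed by *Tmem98* (0.80), *Ppih* (0.78) and *Dhrs7* (0.78), and *Sult2a7* by *Fam47e* (0.86), *Cyp2d13* (0.83) and *Cyp2d38-ps* (0.79). The mice of a group share diet and genotype in all these values.

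Genes around the cluster were compared as well. Within 1 Mb of it the table held 20 other genes, of which 1 was called between the pair-fed genotypes (5.0%, against 1.73% of all genes). This was *Rnf225*, a ring finger gene at chr7:12927416-12931072, with means of 72.4 scaled counts in *Apoe* KO and 15.2 in WT mice (log2 difference 2.25 ± 0.42, limma, adjusted p-value 0.017). The nearest genes outside the cluster did not pass, with −0.33 (limma adjusted p-value 0.364) for the DNA ligase gene *Lig1* and −0.73 (0.285) for the pseudogene *Obox4-ps3*. *Zbed4-ps1*, a pseudogene within the cluster, had a difference of −0.36 (0.73). In the diet comparisons 4 of 20 were called in WT and 5 of 20 in *Apoe* KO mice, against 12.7% and 23.2% of all genes. *Rnf225* was higher with EtOH in both (log2 differences 2.48 in WT and 1.43 in *Apoe* KO mice, limma, adjusted p-values 0.00174 and 0.00533). Between the EtOH-fed genotypes it was higher in *Apoe* KO mice (1.2, limma, adjusted p-value 0.0405). Its values in pair-fed WT mice were low, at 8 to 29 scaled counts.

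The other genes of the sulfonation pathway were compared in the same way. Of 8 other cytosolic sulfotransferase genes measured, 0 passed between the pair-fed genotypes and 0 between the EtOH-fed genotypes by limma (1.73% and 4.69% of all genes), while at an unadjusted p-value under 0.05 it was 1 higher and 1 lower, and 1 higher. With EtOH, *Sult1a1*, which sulfonates phenols, rose from 14548 ± 1402 (SD, n = 4) to 21343 ± 2275 (SD, n = 5) scaled counts in WT mice and from 13883 ± 2537 (SD, n = 5) to 23796 ± 3177 (SD, n = 4) in *Apoe* KO mice. *Sult1b1*, which acts on thyroid hormones and phenols, fell in both (log2 differences −0.81 and −0.81). In WT mice *Sult3a1* (−2.08) and *Sult3a2* (−1.61) fell too. With EtOH 1 rose and 3 fell in WT, and 1 rose and 1 fell in *Apoe* KO mice, against 12.7% and 23.2% of all genes called.

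Of 9 genes of PAPS synthesis and transport, 0 passed between the pair-fed genotypes by limma, with 2 higher at an unadjusted p-value under 0.05. *Papss2*, which makes the sulfonate donor, fell with EtOH from 8278 ± 1459 (SD, n = 4) to 4784 ± 907 (SD, n = 5) scaled counts in WT mice (log2 difference −0.80, limma, adjusted p-value 0.0075). In *Apoe* KO mice its log2 difference was −0.57 (limma, adjusted p-value 0.0351). The sulfate transporter gene *Slc13a4* had 14 to 38 scaled counts in pair-fed and 0 to 3 in EtOH-fed *Apoe* KO mice (−4.21, limma, adjusted p-value 0.00134). EtOH-fed WT mice had 9 to 16, above the EtOH-fed *Apoe* KO mice (−3.15, limma, adjusted p-value 0.0306). These values are near the detection limit, so the size of both differences depends on the value added before taking log2. A read stood for about 2.387, 4.095 and 3.845 scaled counts in EtOH-fed *Apoe* KO mice 2, 4 and 5. In EtOH-fed WT mice 1, 3 and 4 it stood for 0.618, 0.817 and 1.31, so low levels were harder to detect in those *Apoe* KO mice. In all, 1 of 9 fell with EtOH in WT mice, 2 of 9 fell in *Apoe* KO mice, and 1 of 9 was lower in the *Apoe* KO mice on EtOH than in their WT counterparts. Over all genes the shares called were 12.7%, 23.2% and 4.69%, so the diet counts of this list are near the share of all genes. Sulfatases, which remove sulfate groups, rose with EtOH for 2 and fell for 1 of 10 in WT mice, and rose for 4 of 10 in *Apoe* KO mice (2 rose and 1 fell with median-of-ratios size factors), with arylsulfatase A (*Arsa*) at 0.92 and 1.18. The diet shares over all genes were again 12.7% and 23.2%.

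Of 14 nuclear receptor genes linked to *Sult2a* transcription, 0 passed between the pair-fed genotypes by limma, with 2 higher and 2 lower at an unadjusted p-value under 0.05 and a median log2 difference of 0.00. The bile acid receptor gene *Nr1h4* had 6030 ± 587 (SD, n = 4) scaled counts in pair-fed WT and 6214 ± 515 (SD, n = 5) in pair-fed *Apoe* KO mice. Between the EtOH-fed genotypes 1 of 14 passed, against 4.69% of all genes. This was *Esr1*, lower in *Apoe* KO mice (−0.56, limma, adjusted p-value 0.0329). At an unadjusted p-value under 0.05 by limma it was 4 lower and 0 higher there. With EtOH 3 fell in WT mice, namely *Nr1i3*, which encodes the receptor CAR (−0.61), *Ppara* (−0.69) and *Esr1* (−0.52). In *Apoe* KO mice 6 fell, with *Nr0b2*, which encodes the repressor SHP, at −2.92, *Esr1* at −0.85, *Nr1i3* at −0.69, *Ppara* at −0.65 and *Rxra* at −0.43. Over all genes 1.73% passed between the pair-fed genotypes, 12.7% between the diets in WT mice and 23.2% between the diets in *Apoe* KO mice.

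Some bile acid synthesis and transport genes passed in each diet comparison. Of 15 measured, 1 rose between the pair-fed genotypes (*Slco1a1*), against 1.73% of all genes called. With EtOH 3 rose and 3 fell in WT and 3 rose and 6 fell in *Apoe* KO mice, against 12.7% and 23.2% of all genes. With median-of-ratios size factors, 2 rose and 3 fell in WT and 1 rose and 9 fell in *Apoe* KO mice. *Abcc4*, which exports sulfonated bile acids and steroids from the cell, rose from 221 ± 70.6 (SD, n = 4) to 1267 ± 331 (SD, n = 5) scaled counts in WT mice (limma, adjusted p-value 3.22e-05) and from 356 ± 215 (SD, n = 5) to 1440 ± 314 (SD, n = 4) in *Apoe* KO mice (limma, adjusted p-value 0.0022). *Cyp7a1*, the rate-limiting enzyme of bile acid synthesis, had 9136 ± 644 (SD, n = 4) scaled counts in WT mice when pair-fed and 7344 ± 3306 (SD, n = 5) when EtOH-fed.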

How the data were processed

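Liver RNA of 18 mice was analysed, grouped by the deposited labels. Per the labels and the methods of the study, the authors extracted RNA with TRIzol, trimmed with Trimmomatic, aligned with HISAT2 to GRCm38 and counted with featureCounts, and their submission also names FastQC, SAMtools and DESeq2; versions and the handling of multi-mapped reads are not given in the sources used here. The deposited values are a signal, read counts that the authors had scaled and rounded to whole numbers (totals of 32267493 to 32292618 per mouse, a range of 0.078%), and genes with a mean below 11.76 were left out by them. How they were scaled is not stated. Deposited columns of the authors' fold changes and p-values were not used, and 195 repeated lines were dropped, which left 15052 genes; no column of mouse values was left out.

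limma 3.58.1 (R 4.3.3; trend, Benjamini-Hochberg adjustment over all genes) was fitted to log2(value + 1) with the mice of the 2 groups compared, since values were not raw counts. P-values measure the spread between mice. A gene was called at an adjusted p-value under 0.05. Reads per mouse were estimated from the spacing of low values, which gave no result in 2 mice. Coding sequences were aligned with MAFFT 7.526. Other values came from Python 3.11.15 (numpy 2.4.6, pandas 2.3.3, scipy 1.17.1) and figures from matplotlib 3.10.9.

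The members and gene lists were chosen with earlier results of these data known. Named are all members, *Apoe*, the 3 genes with the highest r per member, list genes that passed (at most 5 per list and comparison) or define a list, and neighbours within 1 Mb that passed or were nearest. Lists of sulfotransferases, PAPS genes, sulfatases, nuclear receptors, bile acid genes, sex-biased genes and cell type markers were counted. Tried as alternatives were a pseudocount of 10, median-of-ratios size factors, a mean of at least 50, sample quality weights, all 4 groups in 1 fit, the mouse number as a block, and leaving out each mouse.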

Additional observations from a re-analysis of the deposited data

Results flagged for a closer look

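Of 28 sets of member values (7 genes in 4 groups), 1 held a mouse far from the others, where chance gives about 1.4. EtOH-fed *Apoe* KO mouse 5 had 23 scaled counts of *Sult2a6* (about 6 reads), while the other 3 mice of its group had 234 to 268. The gap to the nearest mouse was 0.944 of the whole range of the group on the log2 scale.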

How the results depend on the processing

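Of 420 values of single members under an alternative, 403 kept their direction and their side of the threshold (or, without a test, moved by less than the spread between mice), 8 lost a call, 8 changed sign and 1 moved. The 8 changes of sign were all in *Sult2a7*, in comparisons in which it did not pass. Between the pair-fed genotypes (main −0.12) it ranged from −0.62 to 0.14 when a mouse was left out, and was 0.02 with the replicate block and 0.13, 0.14, 0.10 and 0.02 without pair-fed WT mouse 2 or 3 or *Apoe* KO mouse 3 or 5. Between the diets in WT mice (main 0.17) it ranged from −0.33 to 0.55 when a mouse was left out, and was −0.19 with sample quality weights, and −0.33 and −0.22 without pair-fed WT mouse 1 or EtOH-fed WT mouse 4. The value that moved was *Sult2a6* between the EtOH-fed genotypes, 3.71 with a pseudocount of 10. With all 4 groups in the fit, 2 in place of 5 members were called between the diets in WT mice; 1 estimate of the spread then covers the wider *Apoe* KO groups.

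Leaving out any mouse, 2 to 3 members were called between the pair-fed genotypes, 5 between the diets in WT mice and 2 between the diets in *Apoe* KO mice, and 4 to 6 differed by more than 1 between the EtOH-fed genotypes. Over all genes, calls between the pair-fed genotypes ranged from 35 to 362 higher and 38 to 308 lower when a mouse was left out (main 131 and 130), fewest without pair-fed WT mouse 2, and were 266 and 237 with sample quality weights. Leaving out pair-fed WT mouse 2 also gave 591 higher and 595 lower between the diets in WT mice (main 931 and 981). Between the EtOH-fed genotypes, 380 were higher and 126 lower with median-of-ratios size factors, against 639 and 67, with a median over all genes of −0.02 against 0.107. Those counts were 289 and 38 without EtOH-fed WT mouse 1. The cause was not tested.

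The labels do not say that a number marks a shared litter or day. Deviations of mice with the same number correlated at −0.079 to 0.072 (pair-fed genotypes), −0.284 to 0.138 (diets in WT), −0.04 to 0.223 (diets in *Apoe* KO) and −0.045 to 0.313 (EtOH-fed genotypes), in no comparison above 0.1 for every number, and 1, 0, 1 and 2 of 4 resembled their own number most. With the replicate block, 3, 5 and 2 members were called in the 3 tested comparisons, as without it, 5 differed by more than 1 between the EtOH-fed genotypes, and calls over all genes moved to 203 lower between the pair-fed genotypes, 599 higher between the diets in WT mice, and 961 higher and 122 lower between the EtOH-fed genotypes. Depth limits *Sult2a6* in WT mice, where 18 scaled counts are about 6 reads.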
